A study of Mus musculus with 12 samples.

Results

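The serpins described here are 10 genes that mouse liver is known for, taken by gene symbol from the 23420 symbols of the count tables: Serpina1a, Serpina1b, Serpina1c, Serpina1d, Serpina1e, Serpina3k, Serpina3m, Serpina3n, Serpina6 and Serpinc1. Livers came from 12 C57BL/6 mice about 20 weeks of age, killed at ZT10, which is 10 hours after lights on, in a cycle of equal light and dark with free access to chow. Wild type females (WTF), Siah2 KO females (KOF), wild type males (WTM) and Siah2 KO males (KOM) had 3 mice each, and the KO mice lacked both copies of Siah2, a ubiquitin ligase gene, in the whole animal. Wild type and KO mice came from separate homozygous lines, both founded from an intercross of heterozygotes, so genotype and breeding line cannot be told apart. RNA was counted with QuantSeq, which reads the 3′ end of poly(A) transcripts, and each level is in CPM, that is reads relative to the TMM-scaled library total. Such reads are not more numerous for a longer transcript, so CPM was not divided by length. In whole liver, fewer cells of a type and less RNA per cell cannot be told apart.

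Serpins are folded proteins that trap proteases. A flexible stretch near the C terminus, the reactive centre loop, acts as bait, and once the protease cuts it the loop inserts into the body of the serpin and carries the enzyme with it. Hepatocytes secrete most of the serpins of blood plasma. The Serpina1 genes encode α1-antitrypsin, the inhibitor of neutrophil elastase, which in the mouse is made from several near-identical copies whose loops differ. The Serpina3 genes are the mouse counterparts of α1-antichymotrypsin and are likewise expanded. Serpinc1 encodes antithrombin, the inhibitor of thrombin and factor Xa, and Serpina6 encodes the corticosteroid-binding globulin, a serpin that carries hormone and inhibits no protease.

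Of the 10 genes, 9 lie on chromosome 12 of GRCm38.p6 and Serpinc1 lies on chromosome 1, from 160978583 to 161002543. The Serpina1 copies occupy 103728156 to 103956897, in the order Serpina1b, Serpina1d, Serpina1a, Serpina1c and Serpina1e. Serpina3k, Serpina3m and Serpina3n follow between 104338486 and 104414334. Among the GENCODE M1 transcripts on NCBIM37, the coding sequences of the 5 Serpina1 copies were all 1242 bases long and pairs of them were between 96.3% and 98.5% identical. Their differences were unevenly placed. Over the whole coding sequence 86 bases, or 6.92%, varied among the copies, but in the most variable 60-base window 18 bases did, or 30.0%. Of 3 overlapping windows with this number the first is printed, which spans codons 368 to 387 in the last exon on the minus strand. It lies at or just after the conserved hinge motif of the serpin loop in 5 of 5 copies, where the bait is. The loop sequences are printed because they are where the 5 coding sequences differ most. Capitals mark the positions at which the 5 copies are not all the same, and coordinates are those of NCBIM37.
Serpina1a, chr12:105091966-105092025: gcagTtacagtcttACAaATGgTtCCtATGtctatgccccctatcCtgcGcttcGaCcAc
Serpina1b, chr12:104966533-104966592: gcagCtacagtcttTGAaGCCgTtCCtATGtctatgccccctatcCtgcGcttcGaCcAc
Serpina1c, chr12:105133303-105133362: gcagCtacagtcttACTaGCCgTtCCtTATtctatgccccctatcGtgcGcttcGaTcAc
Serpina1d, chr12:105001971-105002030: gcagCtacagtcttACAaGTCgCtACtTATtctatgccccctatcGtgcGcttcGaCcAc
Serpina1e, chr12:105185309-105185368: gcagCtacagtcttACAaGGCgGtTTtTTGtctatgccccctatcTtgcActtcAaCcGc
Serpina1e held 8 bases that no other copy had at that position, against 3 in Serpina1a and 2 in each of Serpina1b, Serpina1c and Serpina1d.

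**Figure D1:**
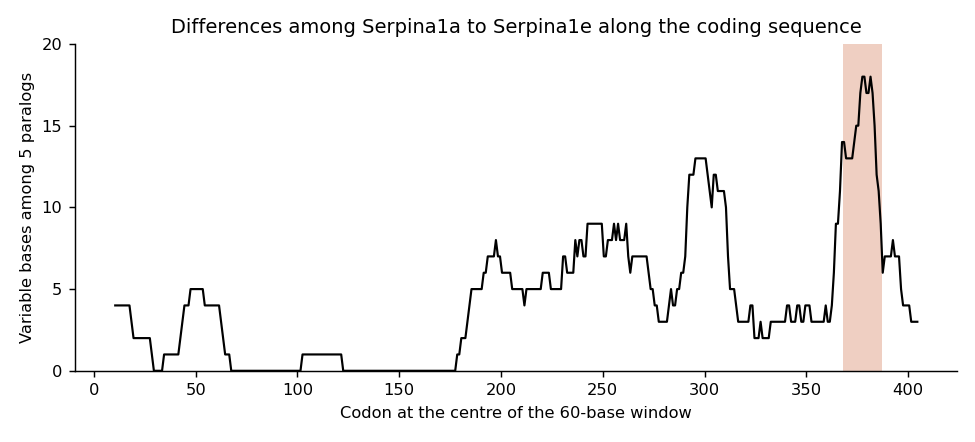
Number of bases that vary among Serpina1a to Serpina1e in each 60-base window (y axis) against the codon at the centre of the window (x axis), with the printed window shaded. The peak of 18 variable bases lies in the loop, and the highest window that does not overlap it has 13.

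The start regions of the same genes could also be aligned. A 120-base stretch before and around the annotated start was matched in the 5 promoters of RefSeq on GRCm38.p6, minus strand, and is shown because Serpina1e, unlike Serpina1a, Serpina1b and Serpina1d, passed edgeR's test between the sexes in both genotypes. The stretch was chosen around the longest run that all 5 share. Its first base lies 100 bases before the annotated start in Serpina1a, 105 in Serpina1b, 106 in Serpina1c, 95 in Serpina1d and 157 in Serpina1e. Capitals again mark positions that vary among the copies.
Serpina1a, chr12:103863600-103863719: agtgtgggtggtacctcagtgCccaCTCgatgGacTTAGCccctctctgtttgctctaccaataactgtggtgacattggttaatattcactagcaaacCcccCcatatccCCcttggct
Serpina1b, chr12:103738175-103738294: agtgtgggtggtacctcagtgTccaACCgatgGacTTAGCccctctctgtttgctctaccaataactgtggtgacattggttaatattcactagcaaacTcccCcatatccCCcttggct
Serpina1c, chr12:103904937-103905056: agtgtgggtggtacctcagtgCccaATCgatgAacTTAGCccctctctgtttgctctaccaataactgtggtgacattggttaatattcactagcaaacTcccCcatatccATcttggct
Serpina1d, chr12:103773609-103773728: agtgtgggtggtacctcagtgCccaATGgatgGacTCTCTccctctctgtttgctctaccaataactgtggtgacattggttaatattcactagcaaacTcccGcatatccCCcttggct
Serpina1e, chr12:103956935-103957054: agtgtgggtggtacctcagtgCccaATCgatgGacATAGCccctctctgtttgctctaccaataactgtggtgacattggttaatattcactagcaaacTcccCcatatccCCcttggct
Of the 120 bases 14 varied (11.7%), and Serpina1e held 1 base that no other copy had there, against 6 in Serpina1d. The letters GTTAAT, a motif of the hepatocyte factor HNF1, searched on both strands, stood in the promoters of all 5 Serpina1 copies, of 7 members with a promoter entry, and in 7.10% of 32851 promoters of the same length. In the printed stretch these letters lie in a run that all 5 copies share, so the 5 matches are not independent of each other. The letters TTCNNNGAA, the core bound by STAT factors, were found in 0 of the 7 and in 8.30% of all promoters. The promoter table used held no entry for Serpina3k, Serpina3m or Serpina6.

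Because the copies are so alike, a read may be assigned to the wrong one. In the last 300 bases of the transcripts, where QuantSeq reads fall, between 0.885% (Serpina1a) and 8.41% (Serpina1b and Serpina1d) of 75-base windows were found unchanged in another Serpina1 transcript, and 0% were shared among Serpina3k, Serpina3m and Serpina3n. How reads that match several copies were counted is not stated in the sources used here, so single Serpina1 rows are uncertain. These shares count exact matches of 75 bases only and do not measure how many reads were misassigned. The sum of the Serpina1 rows was also tested.

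Gene counts totalled 1293688 to 4056144 per mouse, and the 10 serpins took between 1.38% and 3.03% of them. Wild type female 1091 stood apart from the other wild type females, at 42.0 and 45.0 in chi-square per degree of freedom of the counts, where the other pairs within a group gave 6.71 to 21.8. Calls of the 10 serpins that changed without this mouse are given with and without it. Genes outside the 10 are given with all mice only. The transcript Siah2 itself averaged 13.6 ± 2.96 CPM in WTF (SD, n = 3), 10.7 ± 1.57 in KOF, 21.8 ± 5.18 in WTM and 13.9 ± 4.08 in KOM, and its log2 fold change was -0.34 in females (adjusted p = 0.641, edgeR) and -0.67 in males (adjusted p = 0.9999). The part of the gene that was deleted is not stated in the sources used here, so whether these 3′ reads should be lost was not tested. Of 5 hepatocyte markers in the tables, all were counted and the summed level was 25162 to 43758 CPM.

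Serpina1a, the member with the highest median CPM over the 12 mice, had 2444, 2258 and 9467 CPM in the WTF mice 1089, 1090 and 1091. It had 7499, 6094 and 4898 CPM in the KOF mice 1070, 1104 and 1105. The WTM mice 1055, 1086 and 1087 had 5437, 5787 and 8169 CPM, and the KOM mice 1075, 1076 and 1081 had 6466, 4886 and 7198. The low values were those of WTF 1089 and 1090, while WTF 1091 was the highest of the 12. In the order of mice used here, which the following values keep, Serpina1b showed the narrowest range of the family, from 2100 to 3025 CPM over all mice, and Serpina1d ranged from 2043 to 3767 CPM. For these 2 genes the 4 groups lay close together, although WTF and WTM did not overlap. Serpina1b had 2830 to 2980 CPM in WTF and 2170 to 2558 in WTM, and Serpina1d 2860 to 3767 and 2600 to 2766.

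Serpina1c separated by sex. It had 2675, 2376 and 3625 CPM in WTF, 2086, 2071 and 1717 in KOF, 4778, 4102 and 4671 in WTM, and 5064, 4891 and 5632 in KOM. Every male lay above every female, every KOF mouse below every WTF mouse and every KOM mouse above every WTM mouse.

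Serpina1e varied most of all the members. It had 254, 98.7 and 131 CPM in WTF and 55.2, 14.0 and 50.0 in KOF, against 2971, 1132 and 3820 in WTM and 3577, 2561 and 6067 in KOM. The groups ran KOM, WTM, WTF and KOF from high to low. KOM and WTM overlapped, whereas the highest female stayed below the lowest male and the highest KOF mouse below the lowest WTF mouse. The lowest value, in KOF 1104, rested on 38 reads.

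Serpina3k, a kallikrein-binding serpin of plasma, had 4508, 2294 and 2344 CPM in WTF, 910, 1625 and 1616 in KOF, 3403, 3051 and 3603 in WTM, and 3918, 3803 and 4306 in KOM. KOF lay below the other 3 groups without overlap, and WTF 1089 held the highest value of the 12. Serpina3m separated by sex, with 235, 282 and 254 CPM in WTF, 269, 252 and 191 in KOF, 86.4, 119 and 118 in WTM, and 116, 82.5 and 104 in KOM. Every female exceeded every male. Serpina3n, an inflammation-inducible member of the family, was low throughout, with 106, 95.4 and 85.0 CPM in WTF, 83.9, 95.01 and 58.4 in KOF, 53.5, 52.8 and 59.1 in WTM, and 74.3, 56.0 and 69.3 in KOM.

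Serpinc1 was highest in WTF, with 1699, 2055 and 2277 CPM. The other groups lay together, at 1254, 1168 and 1203 in KOF, 1021, 1156 and 1224 in WTM, and 1010, 1105 and 1086 in KOM. Serpina6 was scarcely counted, with 0 to 5 reads per mouse, or 0 to 1.53 CPM, although hepatocytes are the known source of its protein. It did not pass edgeR's filter on low counts in any comparison, so edgeR tested 9 of the 10 members. DESeq2 gave it an adjusted p in males alone (0.9999). At these totals 3 reads, the limit that a count of 0 allows, equal 0.739 to 2.29 CPM, counting error only, so at this depth only a large difference in Serpina6 could have been seen.

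**Figure D2:**
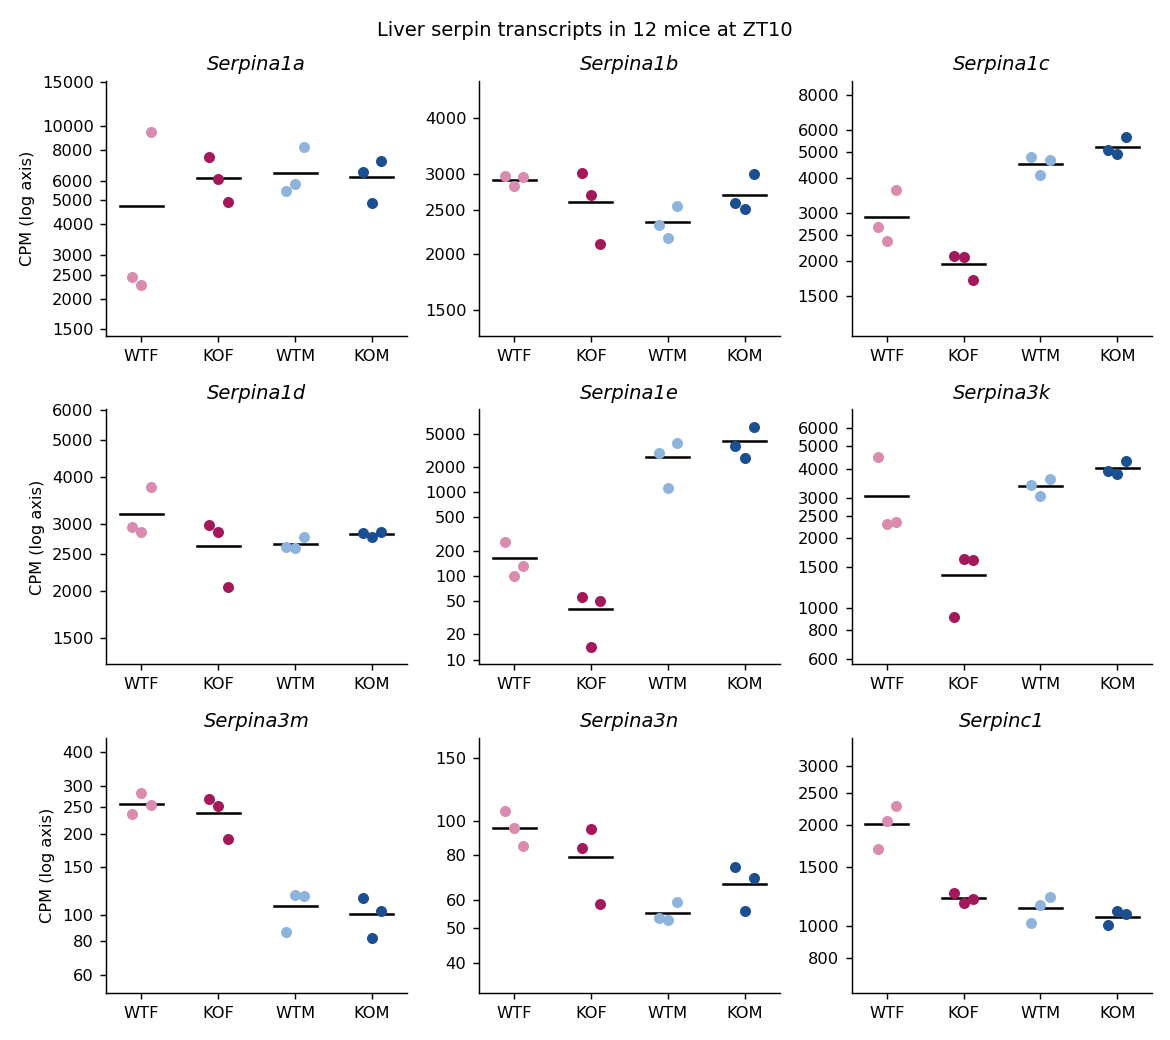
CPM on log axes (y axis) of the 9 tested serpins in each mouse (points, 3 per group) with the group mean (line), for WTF, KOF, WTM and KOM. Serpina1e separates the sexes, Serpina3k is lowest in KOF (910 to 1625 CPM), Serpinc1 is highest in WTF (1699 to 2277 CPM), and the Serpina1a point at 9467 CPM is WTF 1091.

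The composition of the Serpina1 reads differs between the sexes and does not depend on how the library was scaled. Serpina1e made up 2.25%, 0.947% and 0.656% of the Serpina1a to Serpina1e counts in WTF and 0.353%, 0.102% and 0.462% in KOF. In WTM it made up 16.4%, 7.17% and 17.4%, and in KOM 17.4%, 14.5% and 24.5%. Its mean share was 0.795% ± 0.768 (SD) in the 6 females and 16.2% ± 5.59 in the 6 males, a difference of -15.4 percentage points, and all 6 females lay below all males (exact permutation test, two-sided, p = 0.00216). That p is the smallest this test can give for 6 mice against 6, and both genotypes were pooled in it. Within 1 genotype, the smallest p that an exact permutation test of 3 mice against 3 can give is 0.1, so those values are given with no test. Serpina1a took 21.6%, 21.7% and 47.5% of the counts in WTF, 47.9%, 44.4% and 45.3% in KOF, 30.0%, 36.6% and 37.2% in WTM, and 31.5%, 27.7% and 29.1% in KOM. In this respect WTF 1091 lay among the KOF mice and not with the other wild type females.

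**Figure D3:**
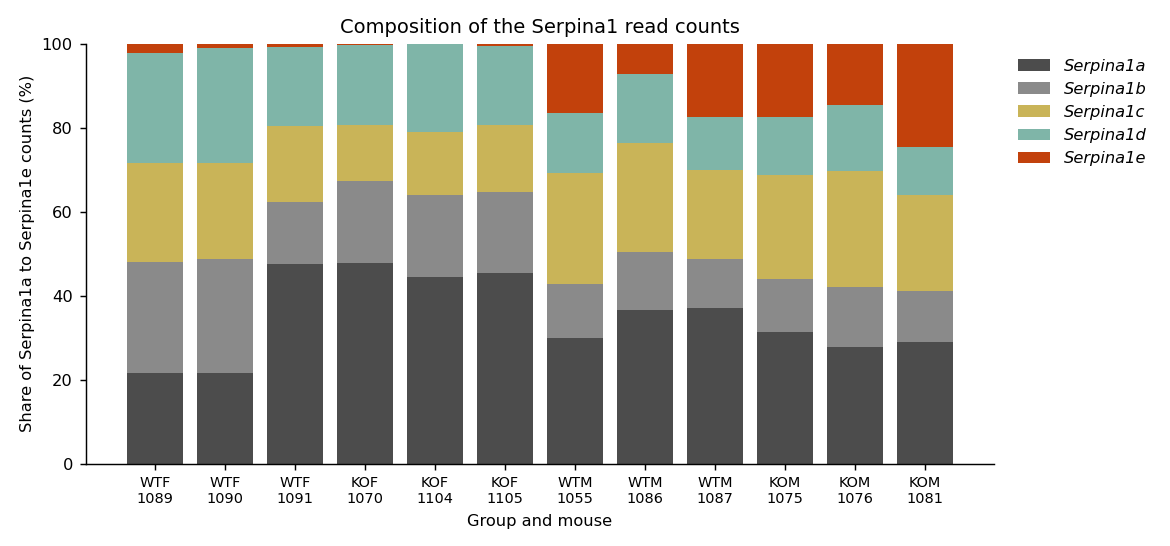
Share of each Serpina1 copy in the Serpina1a to Serpina1e counts (y axis, percent) in each of the 12 mice (x axis, group and mouse). Serpina1e takes 0.102% to 2.25% in females and 7.17% to 24.5% in males, and Serpina1a takes 47.5% in WTF 1091 against 21.6% and 21.7% in WTF 1089 and 1090.

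Wild type females and males were compared first, since several serpins are known to differ between the sexes in mouse liver. All values that follow are log2 fold changes from edgeR's quasi-likelihood test with its standard error (SE), adjusted over all genes tested. Of 9 serpins, 3 were higher and 1 was lower in females, against 2.27% of 9806 genes higher and 2.88% lower, 5.15% in all. Serpina1e was 16.4-fold lower in females (log2 fold change -4.03, SE 0.55, adjusted p = 0.000459). Serpina3m was 2.38-fold higher in females (1.25, SE 0.21, adjusted p = 0.00263) and Serpinc1 1.77-fold higher (0.83, SE 0.18, adjusted p = 0.0152). Serpina3n was 1.73-fold higher (0.79, SE 0.21, adjusted p = 0.0424).

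The other wild type differences did not pass. Serpina1c had a log2 fold change of -0.64 (adjusted p = 0.0828), with DESeq2 giving an adjusted p of 0.0169. Serpina3k had -0.14 with a 95% interval of -0.68 to 0.40, and Serpina1b and Serpina1d had 0.32 and 0.26. Serpina1a had -0.45 (adjusted p = 0.597), and without WTF 1091 it had -1.46 (adjusted p = 0.00062). Without that mouse Serpina1c also passed, at -0.84 (adjusted p = 0.00346), and the genes called in all rose to 1043. The calls of Serpina1e and Serpina3m held with each mouse left out in turn. Serpina3n passed only without WTF 1091, KOF 1104 or KOF 1105 and lost its call without any of the other 9 mice (adjusted p up to 0.119). Serpinc1 lost its call without WTM 1055, 1086 or 1087 (adjusted p up to 0.0784).

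Females and males with the Siah2 KO differed in a partly different set. Serpina1e was 103-fold lower in KOF than in KOM (-6.68, SE 0.63, adjusted p = 6.79e-06), Serpina3k 2.90-fold lower (-1.54, SE 0.28, adjusted p = 0.00486) and Serpina1c 2.65-fold lower (-1.41, SE 0.21, adjusted p = 0.000773). Serpina3m was 2.36-fold higher (1.24, SE 0.21, adjusted p = 0.00254). Thus 1 of 9 was higher and 3 were lower in KOF, against 1.75% and 1.84% of 9806 genes, 3.59% in all. Serpina3n (0.26) and Serpinc1 (0.18) did not pass, and neither did Serpina1a, Serpina1b and Serpina1d, at 0.00, -0.05 and -0.10. All 4 calls held with each mouse left out in turn. That a serpin passed in 1 genotype and not in the other is no test of a difference between genotypes, which is given further on as the difference between the sexes.

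**Figure D4:**
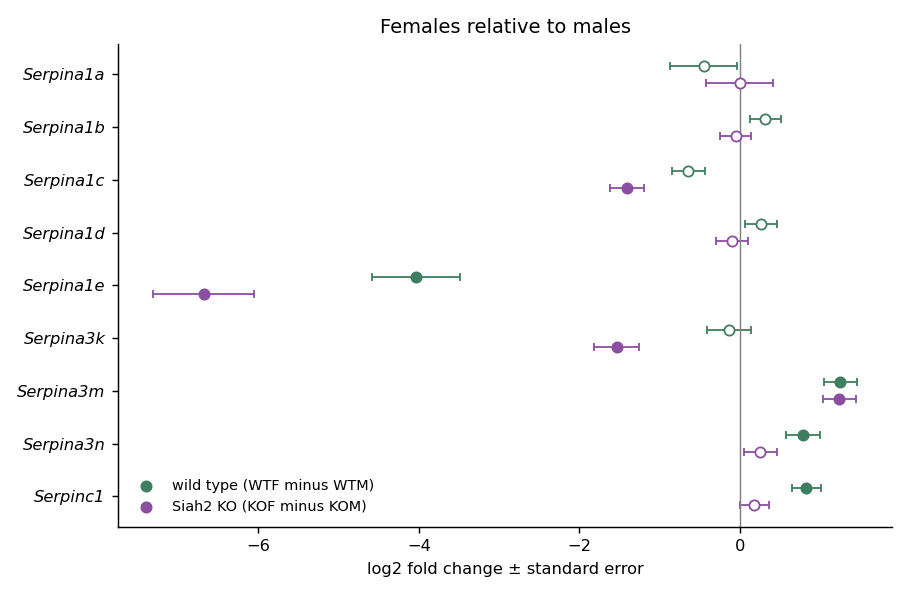
Log2 fold change (x axis) with standard error bars of the 9 tested serpins (y axis) in females relative to males, for wild type mice (green) and Siah2 KO mice (purple), 3 mice per group. Filled points passed an adjusted p of 0.05 in edgeR, and Serpina1e, at -4.03 and -6.68, and Serpina3m, at 1.25 and 1.24, did so in both genotypes.

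Within females, the loss of Siah2 was set against wild type. None of the 9 serpins passed, and neither did any of 9465 genes (0%), by edgeR's test with all 6 mice. At an unadjusted p under 0.05 there were 3 serpins and 1478 genes. These were Serpina1e at -2.04 (SE 0.50, adjusted p = 0.117), Serpina3k at -1.15 (SE 0.36, adjusted p = 0.175) and Serpinc1 at -0.75 (SE 0.24, adjusted p = 0.184). On the linear scale the fitted levels in KOF were 4.11-fold, 2.22-fold and 1.68-fold lower. In these 3 genes and in Serpina1c (-0.58, adjusted p = 0.333) every KOF mouse lay below every WTF mouse, as 11.9% of all genes did. Serpina1a had 0.37 (SE 0.52), Serpina1b -0.18, Serpina1d -0.29, Serpina3m -0.13 and Serpina3n -0.28, and for these the groups overlapped. The median of the 9 was -0.29 beside -0.03 over all genes.

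The call in females depended on the test and on 1 mouse. DESeq2 called Serpina1e (-2.02, adjusted p = 0.00256) and Serpina3k (-1.14, adjusted p = 0.032), with Serpinc1 at 0.0533, among 303 genes (3.7% of 8185). Without WTF 1091, edgeR called 936 of 9709 genes (9.64%) and 4 of the 9 serpins. Serpina1e had -2.15 (adjusted p = 0.02), Serpina3k -1.30 (adjusted p = 0.0255) and Serpinc1 -0.63 (adjusted p = 0.044) without this mouse. Serpina1a then had 1.39 (SE 0.22, adjusted p = 0.0057). With all 6 mice limma-voom, which weighted each library by its quality, gave Serpina1a 1.26 (adjusted p = 0.0119). It also called Serpina1e (-2.45, adjusted p = 0.0109), Serpina3k (-1.35, adjusted p = 0.0163) and Serpinc1 (-0.64, adjusted p = 0.0316). These 4 were among 1058 of 9465 genes that limma-voom called. With all 6 mice Serpina1a passed in neither edgeR nor DESeq2.

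Within males, none of the 9 serpins and none of 8823 genes passed (0%), and at an unadjusted p under 0.05 there were 0 serpins and 357 genes. Serpina1e had a log2 fold change of 0.61 (SE 0.35, adjusted p = 0.9999), and its 95% interval ran from -0.08 to 1.31. Serpina3k had 0.25 (SE 0.14), Serpina3n 0.26, Serpina1b 0.19, Serpina1c 0.19 and Serpina1d 0.08. Serpina1a, Serpina3m and Serpinc1 had -0.08, -0.11 and -0.10. In Serpina1c, Serpina1d and Serpina3k every KOM mouse lay above every WTM mouse, as 4.45% of all genes did. DESeq2 called 0 of the 9 and 6 genes in all.

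**Figure D5:**
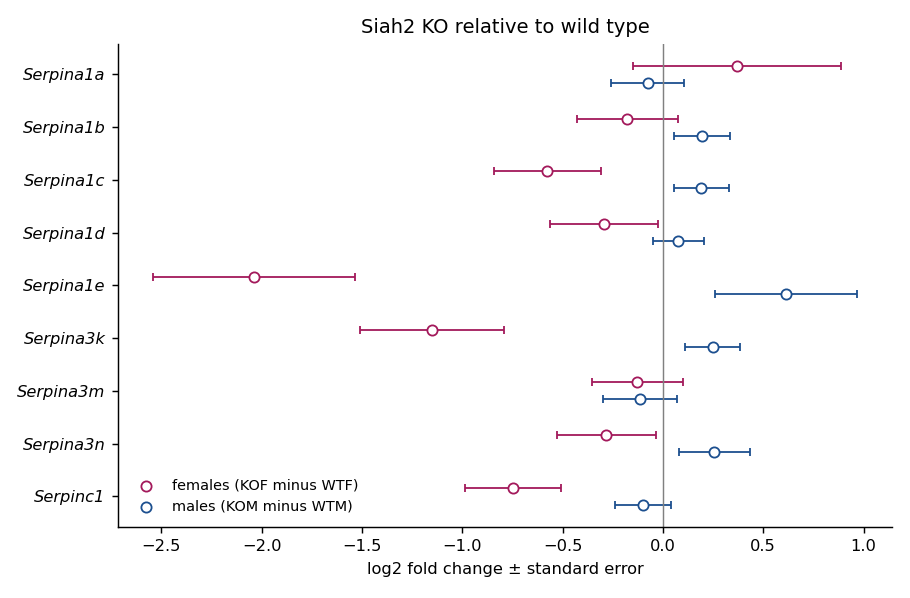
Log2 fold change (x axis) with standard error bars of the 9 tested serpins (y axis) in Siah2 KO relative to wild type mice, in females (KOF minus WTF, red) and males (KOM minus WTM, blue), 3 mice per group. Open points did not pass an adjusted p of 0.05 in edgeR, and Serpina1e, at -2.04 in females and 0.61 in males, is the most widely separated.

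The difference between the sexes, the female change less the male change, was tested as an interaction. None of the 9 serpins passed, while 25 of 9806 genes did (0.255%), and at an unadjusted p under 0.05 there were 4 serpins and 1382 genes. Serpina1e had -2.65 (SE 0.71, adjusted p = 0.109) and Serpina3k -1.40 (SE 0.39, adjusted p = 0.117). Serpina1c had -0.76 (SE 0.29, adjusted p = 0.228) and Serpinc1 -0.65 (SE 0.26, adjusted p = 0.255). DESeq2 called Serpina3k (adjusted p = 0.019) among 260 genes (3.32% of 7824), and gave Serpina1e an adjusted p of 0.0521. Without WTF 1091, edgeR called Serpina1a (1.46, adjusted p = 0.0119), Serpina1e (-2.77, adjusted p = 0.031) and Serpina3k (-1.54, adjusted p = 0.0196), among 522 genes in all. This contrast uses the same 12 mice as the others, so it adds no independent evidence to them.

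The sum of the Serpina1 rows does not depend on which of the copies a counted read was assigned to. Reads left uncounted because they match several copies would be missing from the sum too. The Serpina1a to Serpina1e sum had -0.07 (SE 0.34) in females and 0.17 (SE 0.16) in males, and -0.38 (adjusted p = 0.501) between wild type and -0.64 (adjusted p = 0.252) between KO females and males. The Serpina1 total therefore passed in none of these comparisons, while Serpina1e alone passed between the sexes in both genotypes. The sum of Serpina3k, Serpina3m and Serpina3n, which Serpina3k dominates, had -1.01 (adjusted p = 0.188) in females and -1.29 (SE 0.25, adjusted p = 0.00821) between KOF and KOM, and -0.02 between WTF and WTM.

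Genes with the pattern most like a member were ranked by the root mean square difference of log2 CPM, each gene centred on its own mean, over 12 mice and 6716 genes. Nearest to Serpina1e were Mup12 (0.785), Selenbp2 (0.858) and Mup14 (0.870), where Serpina1e itself varied by 2.88 about its mean. Mup genes encode the major urinary proteins, which male mouse liver makes in quantity, and form a family of near-identical copies too. Nearest to Serpina3k were Ces3b (0.209), a carboxylesterase, C8b (0.256), a complement component, and Pnpla7 (0.298), a lysophospholipase. Nearest to Serpinc1 were Uqcrh (0.138), Prdx1 (0.139) and Shmt1 (0.15), against a spread of 0.375 for Serpinc1 itself. Serpina6 was left out of the ranking because of its few reads.

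Other serpins of clade A, the clade of Serpina1 and Serpina3, differed between the sexes too. Of 16 on the list, 6 could be tested, and 3 were lower in wild type females, where 2.88% of all genes were. These were Serpina12, known as vaspin (-3.11, adjusted p = 0.000451), the pseudogene Serpina4-ps1 (-3.51, adjusted p = 0.00111) and Serpina7, thyroxine-binding globulin (-1.77, adjusted p = 0.0163). By edgeR 0 were higher. DESeq2 also called Serpina10, which went the other way, with 227 to 402 CPM in WTF and 155 to 190 in WTM. Between KOF and KOM, Serpina12 (-4.73), Serpina4-ps1 (-5.69) and Serpina11 (-1.07) were lower, where 1.84% of all genes were. Within a sex 0 of 5 passed in females and 0 of 6 in males by edgeR, and 0 and 0 by DESeq2. At an unadjusted p under 0.05 there were 2 and 1, beside 1478 of 9465 and 357 of 8823 genes. Medians were -0.64 and 0.32 beside -0.03 and -0.01 over all genes. The smallest p values in females belonged to Serpina10, the inhibitor of factor Xa that works with protein Z, at -0.89 (adjusted p = 0.192), and Serpina11 at -0.64 (adjusted p = 0.291). Serpina10 had 402, 227 and 321 CPM in WTF, 220, 168 and 129 in KOF, 187, 155 and 190 in WTM, and 223, 196 and 235 in KOM. Like Serpina3k and Serpina1c, it was lower in every KOF mouse than in any WTF mouse and higher in every KOM mouse than in any WTM mouse, and DESeq2 called its difference between the sexes (-1.17, adjusted p = 0.0324), which edgeR did not (adjusted p = 0.123).

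The list of serpins of other clades also held Agt, angiotensinogen, which belongs to clade A. Of this list, 11 of 14 could be tested between the sexes. In wild type females 1 was higher and 1 lower (2.27% and 2.88% of all genes), and in KOF 2 were higher and 1 lower (1.75% and 1.84%). Agt had 385 to 501 CPM in WTF and 240 to 333 in WTM, a difference that DESeq2 called and edgeR did not. Serpine2, protease nexin 1, was lower in WTF than in WTM (-2.33, adjusted p = 0.000138), with 19.1 to 31.9 CPM against 117 to 146, and lower in KOF than in KOM (-2.49). Serpinb1a, an intracellular inhibitor of neutrophil proteases, was higher in WTF than WTM (2.23, adjusted p = 0.00188) and in KOF than KOM (2.51), and Serpinb6a was higher in KOF than KOM (1.46). Within females, Serpinb1a had -1.38 (adjusted p = 0.128) and Serpind1, heparin cofactor II, -0.72 (adjusted p = 0.201). By edgeR 0 of 12 passed in females and 0 of 9 in males, with medians of 0.06 and -0.16, and DESeq2 called Serpinb1a in females. Unadjusted p was under 0.05 for 2 and 1 of them, beside 1478 of 9465 and 357 of 8823 genes. In males Serpinb1a had -1.65 (adjusted p = 0.9999).

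Of 13 proteases that plasma serpins restrain and their partners, 0 passed within either sex by edgeR or DESeq2, with medians of -0.17 and 0.02. Unadjusted p was under 0.05 for 1 in females, beside 1478 of 9465 genes, and for 0 in males, beside 357 of 8823. Hgfac, the activator of hepatocyte growth factor, was higher in WTF than WTM (0.82, adjusted p = 0.0491). F12 and F11, factors XII and XI, had the smallest p values in females, at -0.73 and 0.84 (adjusted p = 0.314 and 0.343). Of 16 genes for folding and export of secreted glycoproteins, 0 passed within either sex by edgeR, with medians of 0.05 and 0.10. Unadjusted p was under 0.05 for 7 in females, beside 1478 of 9465 genes, and for 1 in males, beside 357 of 8823. Pdia3, a disulfide isomerase, had -1.24 in females (adjusted p = 0.0962), and DESeq2 called it. Between KOF and KOM, 5 were lower, beside 1.84% of all genes, namely Hspa5 (-1.24), Pdia3 (-1.10), Syvn1 (-1.01), Calr (-1.004) and Uggt1 (-0.91), and between WTF and WTM 1 was, Syvn1 (-1.41, adjusted p = 0.00405). Of 14 transcription factors of liver serpin genes, 0 passed within either sex by edgeR or DESeq2, with medians of -0.07 and 0.15. Unadjusted p was under 0.05 for 2 in females, beside 1478 of 9465 genes, and for 1 in males, beside 357 of 8823. The smallest p values were those of Bcl6 at -0.83 and Cebpb at 1.65 in females (adjusted p = 0.228 and 0.288). Cebpb had 92.4, 209 and 12.7 CPM in the WTF mice 1089, 1090 and 1091, and 245 to 395 in KOF, so WTF 1091 weighs on its fold change. Cux2, a female-enriched factor of mouse liver, was counted at 1.84 to 7.22 CPM in KOF and at 0 in the KOM mice (adjusted p = 0.008), and at 2.10 to 4.69 CPM in WTF and 0 to 0.503 in WTM (adjusted p = 0.0516).

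Markers of other cell types moved with sex beside the serpins. The summed level of 5 Kupffer cell markers was 353 to 480 CPM in WTF and 277 to 710 in KOF. In males it was 59.4 to 515 in WTM and 80.3 to 169 in KOM. Of these 5, Clec4f (2.14, adjusted p = 0.00544) and Vsig4 (2.82, adjusted p = 0.00249) were higher in WTF than WTM. The other 3 did not pass. Marco went the other way, with a mean of 49.2 CPM in WTF and 92.6 in WTM, where it ran from 5.26 to 243. In KOF Marco ran from 29.8 to 307 CPM, so single mice weigh on the sums. The erythroid marker Alas2 was lower in WTF than WTM (-2.05, adjusted p = 0.000269), at 20.1 to 25.2 CPM against 83.9 to 105, while the 4 other red blood cell rows were at 0 in all mice. Summed hepatocyte markers were 35935 to 43758 CPM in WTF, 30042 to 39093 in KOF, 25368 to 33352 in WTM and 25162 to 28302 in KOM. Of fat cell markers Adipoq stayed at or below 0.377 CPM and Plin1 at 0, but Fabp4 was counted in every group, and the 5 summed to 47.8 to 55.2 CPM in WTF, 58.4 to 110 in KOF, 49.7 to 120 in WTM and 71.0 to 127 in KOM. Of acinar markers Pnlip stayed at or below 0.361 CPM but Cela1 was counted, and the sums were 13.5 to 29.0, 12.04 to 21.6, 13.6 to 41.3 and 20.8 to 57.4 CPM in the same order. Of bile duct markers Krt19 stayed at or below 0.765 CPM but Sox9 and Spp1 were counted, and the sums were 9.87 to 45.1, 18.1 to 43.8, 47.4 to 56.3 and 27.8 to 36.2 CPM. Summed levels of 4 endothelial markers were 195 to 298 CPM in WTF, 173 to 189 in KOF, 161 to 181 in WTM and 146 to 161 in KOM. Those of 4 stellate cell markers were 173 to 353 CPM in WTF, 163 to 213 in KOF, 133 to 214 in WTM and 149 to 203 in KOM. The part of these cells in the differences of the serpins was not tested. The tables came separately for females and males, and whether the sexes were sequenced together is not stated in the sources used here, so sex and any such batch cannot be told apart.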

How the data were processed

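The authors sequenced QuantSeq 3′ libraries from the livers of 12 mice and trimmed, mapped and counted reads on Illumina's BaseSpace platform. They deposited raw read counts, unnormalized, in a table per sex. The submitters' processing notes name mm10, STAR and DESeq, while versions, annotation and the handling of reads that match several genes are not stated in the sources used here. The labels speak of RNA pooled from 3 mice and the paper of individual livers, which was followed here. Pooling would make p-values measure a smaller spread than that between mice. The deposited tables held 27 symbols that had been turned into dates, and these were kept in the totals. Depth was 1293688 to 4056144 counts per mouse. Intervals and limits from counts cover counting error only.

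Both tables were joined on gene symbol. Genes were filtered with filterByExpr and scaled with TMM, and tested with edgeR 4.0.16 (quasi-likelihood F test, two-sided, Benjamini-Hochberg over all genes tested, threshold 0.05) in R 4.3.3. Females and males were fitted separately for genotype, and all 4 groups together for the other comparisons. Each standard error is the fold change divided by the root of its F statistic, and 95% intervals use a multiplier of 1.96. Alternatives were DESeq2 1.42.0, limma 3.58.1 (limma-voom with weights for library quality), RLE scaling, no filter beyond 1 count and Rn45s removed. Others were the rows of the Serpina1 members and of the Serpina3 members summed, a fit of all 4 groups and each mouse left out in turn. The scripts were tested on simulated data. CPM on a log scale used a prior count of 3, and genes for likeness had a mean of at least 10 CPM. Shares and exact tests used scipy 1.17.1, numpy 2.4.6 and pandas 2.3.3 in Python 3.11.15, and figures matplotlib 3.10.9. Coding sequences came from GENCODE M1 on NCBIM37, and promoters and positions from RefSeq on GRCm38.p6, without any conversion between them.

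The members and the lists were chosen with earlier results of these data known. Named genes were all 10 members, Siah2, the summed rows and, from each list, the genes past the threshold or else the 2 with the smallest unadjusted p, and markers are named as values beside results.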

Additional observations from a re-analysis of the deposited data

Results flagged for a closer look

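The serpins searched here were the 9 tested members, 6 from the clade A list and 11 from the list of other clades, which also held Agt. In 3 of these every KOF mouse lay below every WTF mouse and every KOM mouse above every WTM mouse. Of all genes, 117 of 8659 (1.35%) separated in opposite directions in the 2 sexes. The female change less the male change was -1.40 for Serpina3k (adjusted p = 0.117), -1.17 for Serpina10 (adjusted p = 0.123) and -0.76 for Serpina1c (adjusted p = 0.228), on the log2 scale. The difference was tested with edgeR's interaction and did not pass in any of the 3. DESeq2 gave an adjusted p of 0.019 for Serpina3k and 0.0324 for Serpina10, which it called, and 0.0932 for Serpina1c.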

How the results depend on the processing

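No paired analysis was possible because the groups compared share no replicate numbers. In females, 303 genes and 2 serpins passed with DESeq2, 484 and 2 without a filter, 1058 and 4 with limma-voom, and 427 and 3 in the fit of 4 groups, against 0 and 0. In males the counts were 6 genes with DESeq2, 29 genes and 1 serpin (Serpina1e) without a filter, and 0 otherwise. For the difference between the sexes, 260 genes and 1 serpin passed with DESeq2, 325 and 2 without a filter, and 558 and 3 with limma-voom. Between wild type females and males 802 genes passed without a filter and 1130 with limma-voom, and between KO females and males 664 and 1186. With 1 mouse left out, the genes that passed ran from 0 to 936 in females, 0 to 3 in males, 0 to 522 for the difference, 201 to 1043 between wild types and 150 to 972 between KO mice. The serpins ran from 0 to 4, 0 to 0, 0 to 3, 2 to 6 and 4 to 4. The upper ends came without WTF 1091, except in males, whose fit does not hold this mouse, and for serpins between KO mice. The Serpina1e share differed by -17.2 to -13.8 percentage points.

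Changes of sign were limited to values that had not passed. The difference for Serpina3m was 0.0227 with limma-voom, and Serpina1a between KO mice was 0.0034 without a filter. With 1 mouse left out, Serpina1a in males ran from -0.19 to 0.14, Serpina3m in males from -0.23 to 0.0119 and Serpina3m in the difference from -0.13 to 0.13. Serpina3k between wild types ran from -0.53 to 0.0643. Between KO mice Serpina1a ran from -0.17 to 0.14, Serpina1b from -0.18 to 0.0797 and Serpina1d from -0.21 to 0.0482. The cause of these changes was not tested. RLE scaling and removal of Rn45s left the same 4 serpins called between wild types and between KO mice, and 0 within a sex. With few reads, Serpina6 limits any statement.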
